A study of Mus musculus with 4 samples.

Results

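Of 750 miRNA assays read in mouse lung, 6 measure miRNAs best known from neurons, glia and hormone-secreting cells: mmu-miR-7a, mmu-miR-7b, mmu-miR-9, mmu-miR-124, mmu-miR-137 and mmu-miR-219. They were taken by their miRBase names and not by a cut on their values, though earlier results of these data were known. The study asked how lung miRNAs differ between newborn and adult mice and what breathing high oxygen does to them. Its 4 groups were newborns collected at 3 days of age and adults of 2 months, each exposed to room air or to 95% oxygen (hyperoxia) over 72 h. All groups were lung tissue of Mus musculus, namely the right lung after perfusion of the pulmonary artery with buffered saline. The labels name no strain, genotype or transgene, and do not give the number of animals behind a library. Nursing mothers were moved between the atmospheres, so newborns in either group were also nursed by dams that had been in the other. Each group has 1 library, so no difference below has a replicate of its own.

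These miRNAs are short RNAs that lower the output of messenger RNAs carrying a match to the seed, the bases near the 5′ end. miR-124 is the classic neuronal miRNA, which holds down non-neuronal transcripts. miR-9 acts in neural progenitors and in neurons, miR-137 in neuronal maturation, and miR-219 in the maturation of oligodendrocytes, the cells that make myelin. miR-7a and miR-7b are enriched in pancreatic islets, the pituitary and the hypothalamus, and bind the circular RNA Cdr1as. In lung, the cells nearest to these types are the pulmonary neuroendocrine cells of the airway lining, which are rare, and the nerves that reach airways and vessels. Whole lung was measured, so fewer cells of a type and less RNA per cell cannot be told apart.

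The mature sequences show which of the 6 could act on the same targets and which assays must tell near-identical RNAs apart. The RefSeq set used here (build GRCm38.p6) held mature sequences for 5 of the 6. It held none for miR-124, although hairpins of miR-124 are annotated. These 5 are given 5′ to 3′ with the seed, bases 2 to 8, in capitals.
miR-7a: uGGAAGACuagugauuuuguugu
miR-7b: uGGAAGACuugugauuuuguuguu
miR-9: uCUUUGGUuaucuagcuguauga
miR-137: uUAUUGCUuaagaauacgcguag
miR-219: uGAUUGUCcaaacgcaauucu
miR-7a and miR-7b form a pair with 1 shared seed. They are identical at 22 of 23 compared bases and differ by A10U (miR-7a base, position from the 5′ end, miR-7b base) and by 1 extra 3′ base of miR-7b. No other mouse mature miRNA in the RefSeq set carries the seed of miR-7, and each of the other 3 seeds is carried by its own miRNA alone. How far each miR-7 assay reads the other RNA was not tested.

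The precursors of miR-7 are shown because values of miR-7a are given below beside those of its own passenger strand, the opposite arm of the hairpin that is usually discarded. Capitals mark both arms, the guide first, and positions are of GRCm38.p6.
Mir7-1, chr13:58392779-58392886, minus strand: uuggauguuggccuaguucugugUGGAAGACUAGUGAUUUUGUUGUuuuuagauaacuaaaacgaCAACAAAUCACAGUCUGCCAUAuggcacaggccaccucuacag
Mir7-2, chr7:78888277-78888373, plus strand: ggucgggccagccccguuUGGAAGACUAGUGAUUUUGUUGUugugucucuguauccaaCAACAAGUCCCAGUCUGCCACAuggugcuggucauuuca
Mir7b, chr17:56242988-56243098, plus strand: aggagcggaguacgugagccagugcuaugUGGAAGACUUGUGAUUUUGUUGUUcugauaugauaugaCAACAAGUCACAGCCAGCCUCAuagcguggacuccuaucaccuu
Mir7-1 and Mir7-2 give the same guide, so the miR-7a assay reads their sum. Their passenger strands differ at 3 of 22 bases (A7G, A10C and U21C, with Mir7-1 first). Mir7-1 lies within the annotated span of Hnrnpk, a gene for an abundant RNA-binding protein, while Mir7-2 and Mir7b overlap no other annotated gene. Exon boundaries were not used here. miR-9 likewise comes from 3 loci, Mir9-1, Mir9-2 and Mir9-3, each overlapping an annotated long noncoding RNA. Mir137 overlaps no annotated gene, and miR-219 comes from Mir219a-1 and from Mir219a-2, which overlaps Cercam.

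Levels are log2 values against the small nucleolar RNA snoRNA202 of the same card, so a difference of 1 is 2-fold at perfect amplification. Levels of different assays are not set against each other, because assays amplify with different efficiency. An assay counted as detected at a threshold cycle (Ct) of 35 or below. Between 468 and 507 of the 750 assays were detected per library, and 426 in all 4. The technical SD of a difference, from 4 control RNAs read on both cards, was 0.26 log2 between the neonatal libraries, 0.33 between the adult libraries, 0.65 between the room air libraries and 0.95 between the hyperoxia libraries. It leaves out variation between animals. The control RNAs cross earlier than the 6 miRNAs, so it may understate the spread of such later assays. Lung markers were early in every library: miR-126, of endothelium, crossed at a Ct of 9.96 to 11.0 and miR-200c, of epithelium, at 14.3 to 16.0. All 6 miRNAs sit on the first card, in rows A, C, D and F, and none in row L, where the adult room air library was out of step. Of the 6, 5 were detected in all 4 libraries, and miR-124 in 3.

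miR-7a, which targets the growth factor receptor Egfr in several cell types, varied most of the 5 across libraries. In newborns its level was -13.59 in room air and -14.81 in hyperoxia, and in adults -11.22 and -13.24. Adult room air stood highest and neonatal hyperoxia lowest, and adult hyperoxia and neonatal room air lay closer together (0.36) than the technical SD of that pair (0.72). miR-7b was at -14.41 and -15.19 in the newborn libraries (room air, then hyperoxia) and at -13.28 and -13.50 in the adult ones. Both adult libraries lay above both neonatal ones, and the adult pair differed by less than its technical SD. miR-9 was at -12.41 and -12.72 in newborns and at -11.97 and -12.42 in adults, room air first. Its range of 0.74 was the smallest of the 5, and no neighbours in its order differed by more than their technical SD. Within each age, though, its atmospheres differed by 1.18 (newborns) and 1.36 (adults) times the technical SD of the pair.

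Against snoRNA202, miR-137 ran the other way. In newborns it was at -13.54 in room air and -12.24 in hyperoxia, and in adults at -15.63 and -14.98. Both neonatal libraries lay above both adult ones, and every step in its order exceeded the technical SD. miR-219 was at -17.54 in room air and -16.40 in hyperoxia in newborns, and at -17.52 and -16.69 in adults. Here both hyperoxia libraries lay above both room air libraries, and within each atmosphere the ages differed by less than the technical SD. miR-124 was at -16.38 in room air and -13.47 in hyperoxia in adults, and at -16.26 in hyperoxia in newborns. Its well in neonatal room air held a Ct of 40, the value for no crossing, which is either a low level or a failed well. With Ct 35 as the bound, its level there was at most -20.95.

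**Figure D1:**
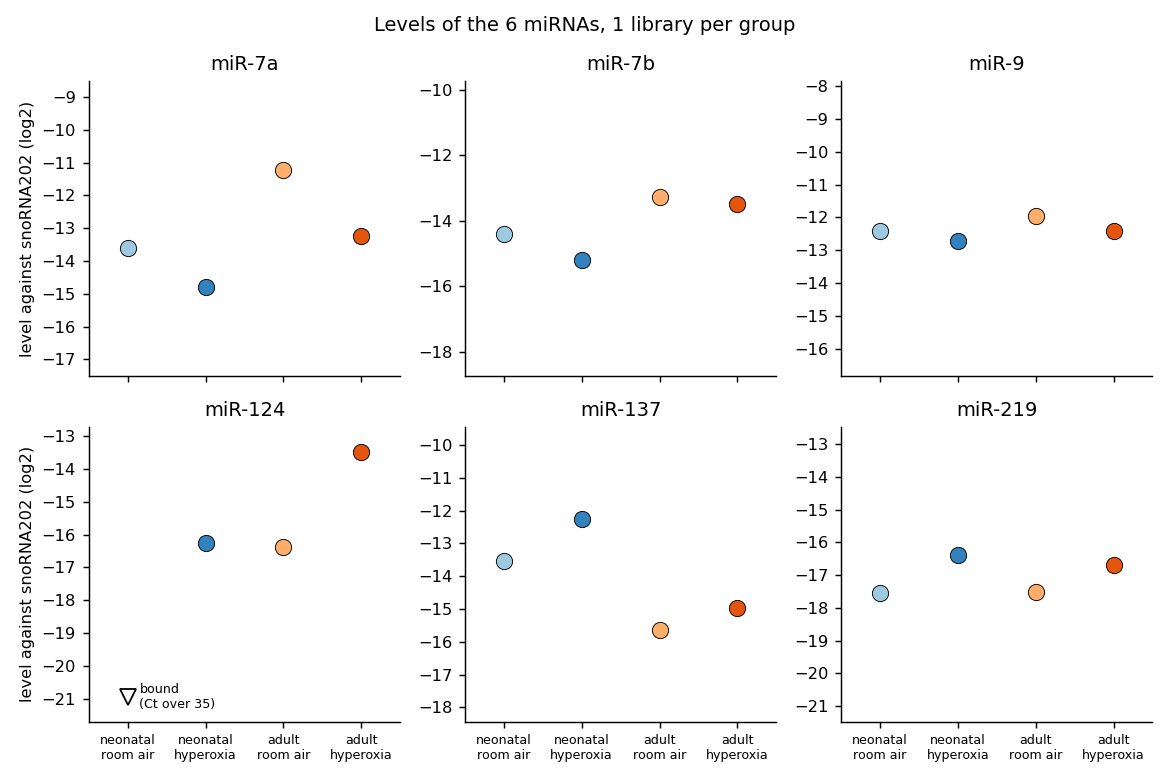
Level of each miRNA against snoRNA202 of its card (log2, vertical axis; every panel spans the same number of units) in the 4 libraries, 1 point per library. The open triangle is the bound for miR-124 at Ct 35; miR-7a and miR-7b are highest in adult room air, miR-137 is highest in neonatal hyperoxia, and miR-219 is higher in both hyperoxia libraries.

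With age, miR-7a and miR-7b were higher and miR-137 lower in both atmospheres, except that miR-137 turned to 0.56 and 0.24 log2 with U6 as reference. In room air, 2 of 5 measured members were at least 2-fold higher in the adult, miR-7a by 2.37 log2 and miR-7b by 1.13, where 16.6% of all 435 assays were. In hyperoxia 3 of 6 were, miR-7a by 1.57, miR-7b by 1.69 and miR-124 by 2.79, against 10.9% of all 450 assays. The only member at least 2-fold lower was miR-137, at -2.09 in room air and -2.74 in hyperoxia, a class that held 43.0% and 49.3% of all assays. The median of all assays was -0.57 in room air and -0.98 in hyperoxia, so lower values in adults were more common than higher ones. These medians move with the reference: in room air the median was 1.46 with U6 and 0.40 after card median centring. Only 23 of 435 assays lay above miR-7a in room air, while 101 lay below miR-137. miR-9, at 0.44 and 0.29, and miR-219, at 0.02 and -0.29, differed by less than the technical SD.

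A limma model with terms for age and oxygen was fitted to the 426 assays detected throughout. With no replicates, its SEs and p-values rest on how far the oxygen difference in adults departs from that in neonates. In this fit, 1 of the 5 members rose with age and 1 fell. The rise of miR-7a was 1.97 log2 with an SE of 0.37 (adjusted p = 0.0394 by limma and Benjamini-Hochberg). miR-137, at -2.41 ± 0.35 (limma, adjusted p = 0.0244), fell. Over all assays 5.63% were called higher and 30.0% lower, so 1 of 5 members called lower is no more than the background, and the call higher rests on 1 miRNA. The split of all calls moved with the reference, from 24 higher and 128 lower to 196 and 71 with U6, 99 and 77 with library means and 136 and 84 with card medians. miR-7b stood at 1.41 ± 0.34 and missed the threshold (limma, adjusted p = 0.0581). It was called under 4 of the 6 references tried, the first and the deposited one being those where it was not. miR-9 at 0.37 ± 0.30 (limma, adjusted p = 0.396) and miR-219 at -0.13 ± 0.31 (limma, adjusted p = 0.745) were not called. The miR-7a coefficient was above 0 and called under all 6 references (1.97 to 4.78), but its adjusted p was 0.0543 when assays up to Ct 38 were also fitted (limma). miR-137 was called lower under 5 references and stood at 0.40 with U6 (limma, adjusted p = 0.326). The miR-9 coefficient lay above 0 under all 6 references (0.37 to 3.18) and was called under 2, U6 and card medians. U6 itself stood on the first card at 4.16 log2 in the neonatal and 1.51 in the adult room air library.

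**Figure D2:**
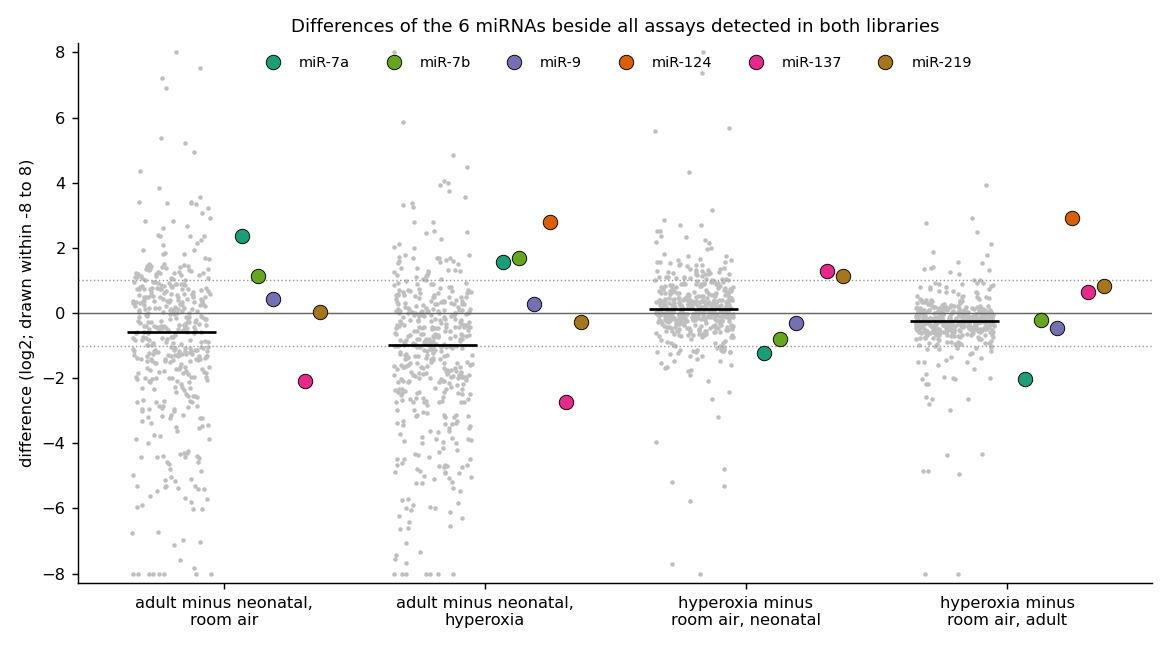
Difference in log2 level for 4 pairs of libraries (vertical axis), with every assay detected in both libraries as a grey point, their median as a black bar, the 6 miRNAs as coloured points and dotted lines at 2-fold. The 21 assays beyond 8 log2 units are drawn at the edge; miR-7a lies high in both age comparisons and low in both oxygen comparisons, and miR-124 lies near the top in adult oxygen.

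Because the 6 wells share a card, any reference moves them together, and the gap between 2 members within a pair of libraries was the same under all 6 references (50 gaps, largest spread 0). The age difference of miR-7a exceeded that of miR-137 by 4.46 log2 in room air and by 4.31 in hyperoxia. These pairs share no library. That of miR-7b exceeded miR-137 by 3.22 and 4.43. The gap between miR-7a and miR-7b was 1.24 in room air and -0.13 in hyperoxia. The change of that gap was not tested. The age difference of miR-137 lay below that of miR-219 by 2.11 and 2.45 log2.

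Under hyperoxia the same 5 members split into the miR-7 and miR-9 assays, below 0, and miR-137 and miR-219, above 0, at both ages, although the small adult values of miR-7b and miR-9 changed sign with some references. In neonates 2 of 5 were at least 2-fold higher, miR-137 by 1.30 log2 and miR-219 by 1.15, where 13.6% of all 469 assays were. miR-7a, at -1.21, was the 1 member at least 2-fold lower (background 8.53%). In adults miR-124, at 2.91, was the only member of 6 at least 2-fold higher, where 3.79% of all 448 assays were. miR-7a, at -2.02, was again the 1 that was lower (background 8.26%), with 15 assays below it. That value and the miR-7a age difference of 2.37 log2 in room air both rest on the adult room air library. The remaining adult values were -0.22 for miR-7b, -0.45 for miR-9, 0.65 for miR-137 and 0.84 for miR-219. The miR-7a differences were 4.75 and 6.08 times the technical SD of their pairs, and those of miR-219 4.48 and 2.52 times. That SD comes from control RNAs that cross earlier, so these multiples may be too large for later assays.

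The limma model called 0 of 426 assays for oxygen in either direction (0% higher and 0% lower), and 13 had an unadjusted p under 0.05. The fits with an intensity trend and with robust moderation also called 0 assays. miR-7a stood at -1.61 ± 0.37 log2 (SE; limma, unadjusted p = 0.0202) and miR-219 at 0.99 ± 0.31 (limma, unadjusted p = 0.0454). miR-137 was at 0.97 ± 0.35, miR-7b at -0.50 ± 0.34 and miR-9 at -0.38 ± 0.30. All 5 had an adjusted p of 0.988 (limma, Benjamini-Hochberg). Of the 426 fitted assays, 18 lay below miR-7a, 12 above miR-219 and 13 above miR-137. All 5 coefficients kept their sign under the 6 references, with ranges of -1.61 to -1.36 for miR-7a, 0.99 to 1.24 for miR-219 and 0.97 to 1.22 for miR-137. In adults alone, the difference of miR-7b lay above 0 under 4 references and that of miR-9 under 1. Late assays spread more: at a mean Ct of 25 to 30, where miR-7a and miR-137 lie, 31.1% of 148 assays differed at least 2-fold in either direction in neonates and 14.9% of 134 in adults. At 30 to 35, which holds miR-219 in both, 54.2% of 48 and 44.2% of 52 did.

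**Figure D3:**
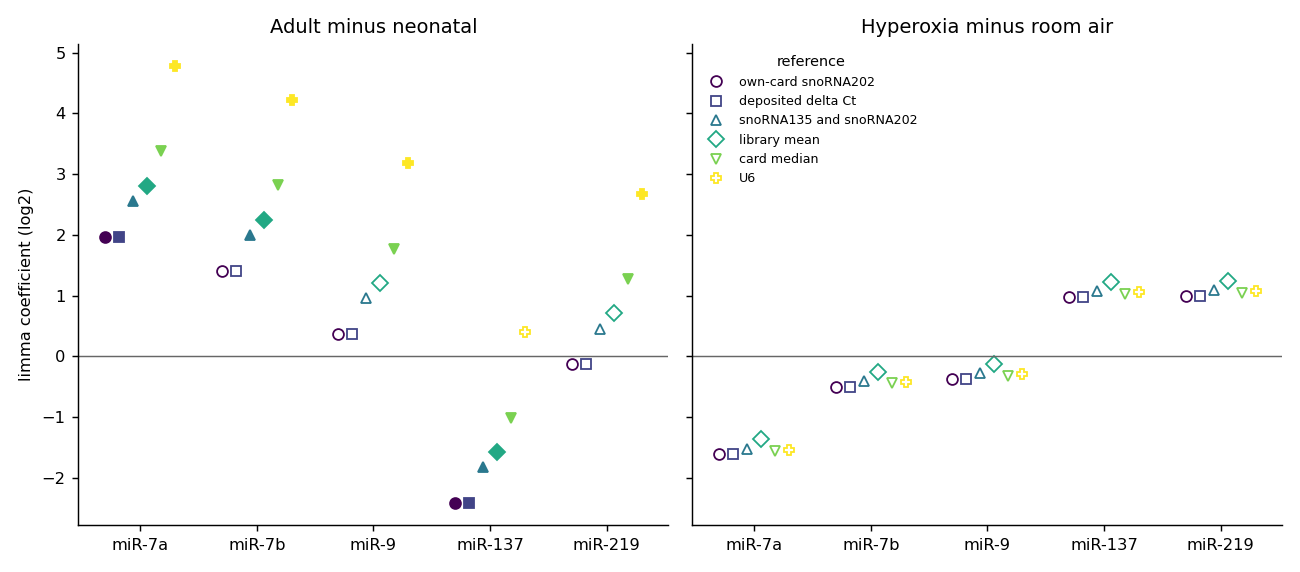
Coefficients of the limma model (log2, vertical axis) for age and for oxygen under 6 references (marker shapes), filled where the adjusted p was under 0.05. The age coefficients move with the reference, with miR-7a called higher under all 6 and miR-137 lower under 5; the oxygen coefficients move little and none is filled.

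Gaps between members in the oxygen comparisons did not depend on the reference either. The oxygen difference of miR-7a lay below that of miR-137 by 2.51 log2 in neonates and by 2.66 in adults, and below that of miR-219 by 2.36 and 2.85. Within the miR-7 pair the gap was -0.43 in neonates and -1.80 in adults. miR-137 and miR-219 differed by 0.15 and -0.19, less than the technical SD at either age. These gaps were not tested.

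The assays named for the passenger strand of miR-7a were nearly level against snoRNA202 where the guide was not. The mouse miR-7a* assay was at -4.85 in room air and -5.21 in hyperoxia in newborns, and at -4.95 and -4.93 in adults. A separate assay named for rat miR-7a* was at -5.62 and -5.64 in newborns and at -5.62 in both adult libraries. Neither assay spanned more than 0.36 log2 over the libraries, where miR-7a spanned 3.58. The age coefficient was 0.09 ± 0.32 for the mouse assay (limma, adjusted p = 0.836) and 0.01 ± 0.30 for the rat-named one (limma, adjusted p = 0.978). Under other references these coefficients reached 1.52 and 1.44, and each was called under 1 of the 6. In room air the age difference of miR-7a exceeded that of the mouse miR-7a* assay by 2.47 log2 and that of the rat-named assay by 2.37. In hyperoxia these gaps were 1.28 and 1.55. For oxygen they were -0.86 and -1.19 in neonates and -2.04 and -2.01 in adults. All 8 gaps kept their sign under the 6 references, although both passenger assays sit on the second card and the guide on the first. Whether guide and passenger differ was not tested. Both passenger assays crossed earlier than the guide assay in every library, in neonatal room air at a Ct of 20.2 and 20.9 against 27.6. Whether they read the miR-7a passenger strand alone was not tested. The labels do not say from which hairpin the miR-7a* assays take their sequence.

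The passenger strand of miR-9 was read by 1 assay. The miR-9* assay was at -14.45 and -14.47 in newborns, room air first, and at -14.78 and -14.41 in adults. The age difference of miR-9 lay 0.77 above that of miR-9* in room air, which turned to -0.26 under another reference, and 0.24 above it in hyperoxia. For oxygen the gaps were -0.28 and -0.81. The assays of miR-124* and of rat-named miR-219-1-3p and miR-219-2-3p held a Ct of 40 in all 4 libraries, so they are listed as not crossing and give no level.

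**Figure D4:**
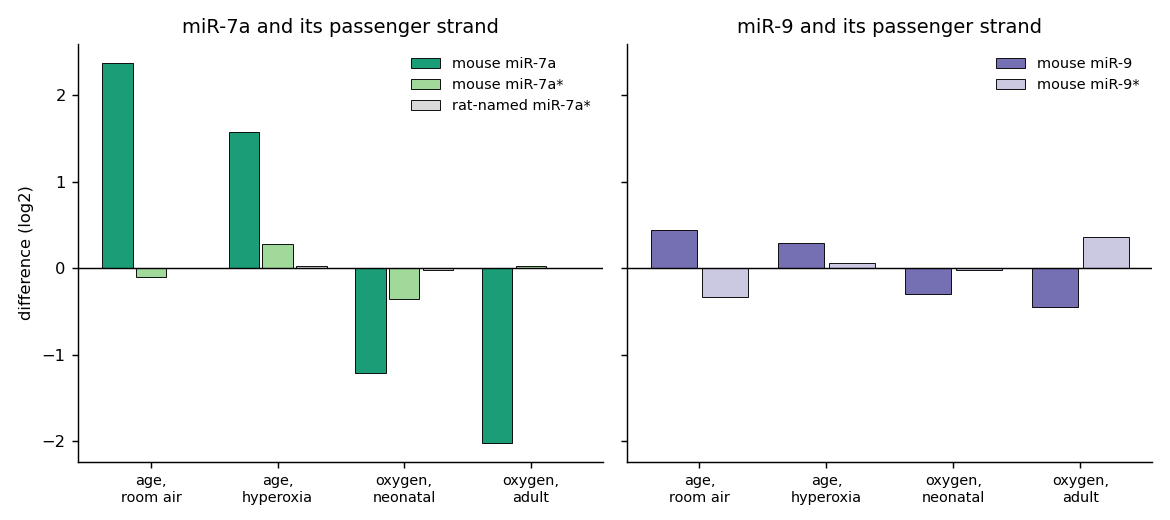
Differences in log2 level (bars from 0, vertical axis) of miR-7a with 2 assays of its passenger strand, and of miR-9 with its passenger strand, for age in room air, age in hyperoxia, oxygen in neonates and oxygen in adults. The miR-7a bars reach 2.37 and -2.02 while both passenger assays stay within 0.36 of 0.

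Over all libraries miR-7a and miR-137 spanned 3.58 and 3.39 log2, but among the pairs compared miR-124 held the widest measured difference. It rests on the fewest libraries. In newborns its Ct was 40 in room air and 29.8 in hyperoxia, and in adults 29.8 and 26.3. Between the adult libraries it was 2.91 log2 higher in hyperoxia, 8.79 times the technical SD of the earlier control RNAs, and 1 of 448 assays lay above it. With Ct 35 as the bound in neonatal room air, it was at least 4.69 log2 higher in neonatal hyperoxia and at least 4.56 higher in adult room air, if that well did not fail. Of 373 assays that crossed by Ct 30 in each of the other 3 libraries, 3 held a Ct of 40 in neonatal room air: miR-124, miR-155 and rat-named miR-547. The counts were 1 of 365 in neonatal hyperoxia, 6 of 370 in adult room air (all 6 in row L) and 0 of 366 in adult hyperoxia. miR-122, the 1 liver miRNA among the markers of other tissues, was also latest in neonatal room air. In newborns its Ct was 36.0 in room air and 27.6 in hyperoxia, and in adults 32.8 and 28.3. It was 3.95 log2 higher in adult hyperoxia than in adult room air. Its part in the miR-124 difference was not tested.

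Other neural miRNAs were read beside the 6. A list of 21, chosen without the Dlk1-Dio3 imprinted cluster, had 21 assays, of which 3 were detected in no library and 13 in all 4. In adults 0 of 15 measured in both libraries were at least 2-fold higher in hyperoxia and 3 were lower, where 3.79% and 8.26% of all assays were, with a median of -0.23 log2 beside -0.24 for all assays. A further 3 held a Ct of 40 in adult room air and were detected in adult hyperoxia. With Ct 35 as the bound, miR-384-3p was at least 1.78 log2 higher in hyperoxia and miR-129-3p at least 0.97, if those wells did not fail. The same bound for miR-551b would be 5.94. It lies in row L, where the adult room air library was out of step, so its Ct of 40 gives no safe bound. In neonates 1 of 15 was higher and 1 lower (13.6% and 8.53% of all assays), with a median of 0.38 beside 0.13. The limma model called 0 of 13 for oxygen. For age it called 1 higher and 2 lower (5.63% and 30.0% of all assays), with a median coefficient of -0.73 beside -0.84 for all assays. The fit leaves out miR-448 and miR-592, which were detected in both adult libraries and in neither newborn one. Their adult Ct was 28.4 and 28.1 in room air and 27.7 and 30.2 in hyperoxia. Also left out were miR-129-3p and miR-551b, whose age differences in hyperoxia were -0.17 and -3.12 log2. miR-338-3p, which acts with miR-219 in oligodendrocytes, rose by 2.85 ± 0.44 (SE; limma, adjusted p = 0.0276), under all 6 references. miR-218, of motor neurons and vessels, at -1.85 ± 0.30 (limma, adjusted p = 0.0305), and miR-383, at -2.63 ± 0.54 (limma, adjusted p = 0.0451), fell, but both lay above 0 with U6. Their calls held under 3 and 2 of the 6 references. miR-219 and miR-338-3p thus had age coefficients of -0.13 and 2.85. Their oxygen differences in adults were 0.84 and -0.28. The other arm of miR-338, miR-338-5p, had age differences of -3.43 log2 in room air and 0.55 in hyperoxia, and was not called. Its oxygen difference in neonates was -3.96, where that of miR-338-3p was 0.87. Whether the 2 arms differ was not tested.

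Of 7 miRNAs of neuroendocrine and sensory cells, 6 were detected in all 4 libraries. miR-375, of islets and neuroendocrine cells (listed as miR-375-3p), was at -5.61 and -5.53 in newborns, room air first, and at -5.25 and -5.41 in adults. It spanned 0.36 log2, and its age coefficient was 0.24 ± 0.30 (limma, adjusted p = 0.570). Of the 6, limma called 3 lower with age and 0 higher, where 30.0% and 5.63% of all assays were called, and 0 for oxygen. Their median age coefficient was -1.69 beside -0.84 for all assays. Those called were miR-184 at -4.31 ± 0.53 (limma, adjusted p = 0.0179), miR-204 at -3.20 ± 0.31 (limma, adjusted p = 0.0117) and miR-182 at -1.67 ± 0.31 (limma, adjusted p = 0.0374). miR-184 and miR-204, known from the eye, lay below 0 under all 6 references and were each called under 5. miR-182, of sensory cells and airway epithelium, was called under 3 and was at 1.15 with U6. miR-211, the relative of miR-204, was detected in adults alone, at a Ct of 30.8 in room air and 28.8 in hyperoxia. miR-7a, which rose, thus had the opposite sign to the 3 called in this list.

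The marker lists of other cell types are given as measured values beside these results, and their part in them was not tested. The 5 miR-200 family members of epithelium, the layer that holds neuroendocrine cells, had a median oxygen difference of 0.73 in neonates and -0.51 in adults and 0 calls for age. Their summed level (log2) was -0.66 in room air and 0.22 in hyperoxia in newborns, and -0.19 and -1.03 in adults. Such sums add assays of different efficiency and are weighted to the earliest ones. They are given for reading across libraries within a list, and not as amounts. The 5 striated muscle miRNAs had medians of 0.83 and -0.57 for oxygen, and summed levels of -4.98, -3.75, -4.21 and -4.78 in the same order. The 3 red cell miRNAs had medians of -0.69 and -0.32, and summed levels of -4.48, -5.11, -5.14 and -5.38. The 4 leukocyte miRNAs had medians of 0.39 and -0.39, with summed levels of -0.56, -0.19, 0.11 and -0.25. The 2 arms of miR-126 had summed levels of 3.21, 3.66, 3.15 and 3.13, and miR-143 with miR-145 of -1.70, -1.41, -0.48 and -0.61. All of these markers were detected in every library. Of these lists, limma called only the muscle miRNA miR-206, lower with age at -2.91 ± 0.32 (limma, adjusted p = 0.0144).

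Assays with the most similar pattern over the 4 libraries were found by the root mean square distance between levels centred on their own means, as a description. Nearest to miR-7b were miR-10b, of a Hox cluster (0.13 log2), rat-named miR-30d* (0.22) and miR-99a (0.27). Nearest to miR-219 was miR-293 (0.09), then miR-125b* (0.30) and rat-named miR-146b (0.31). miR-137 lay nearest to miR-669n (0.25), miR-694 (0.27) and rat-named miR-350 (0.29). miR-9 had 60 assays within 0.3, led by miR-879* (0.02), miR-27a (0.07) and miR-191* (0.08), whereas miR-7a had 0, its nearest being human-named miR-197 (0.57), miR-207 (0.58) and miR-715 (0.63). These distances describe 4 libraries and were not tested.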

How the data were processed

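Total RNA of 4 lung samples was reverse transcribed with Megaplex primers, preamplified and read with TaqMan assays on 2 cards of 384 wells, per the labels' protocols. The authors deposited log2 values of 2 kinds, per the file headers: the Ct, and the Ct minus that of snoRNA202, both lower where more RNA was read. The threshold and baseline settings: not given in the sources used here. Here the level is the snoRNA202 Ct of the well's own card minus the well's Ct. For the 6 members this is the deposited value with its sign turned, in every library; on the second card of adult room air the deposited values use the first card's reference.

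The limma 3.58.1 fit (lmFit and eBayes, R 4.3.3; age plus oxygen, Benjamini-Hochberg over 426 assays, threshold 0.05) leaves 1 residual degree of freedom and 2.16 prior ones. It was tested on simulated data. The model has no interaction of age and oxygen. With 1 library per group, its residual is the departure of the adult oxygen difference from the neonatal one. The SEs and p-values rest on that departure, moderated over all assays, and not on replicates. Technical spread, variation between animals and a true change of the oxygen effect with age cannot be told apart in it. Each adjusted p is therefore conditional on there being no such change. No depth in reads exists; Ct stands in its place.

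Members and lists were chosen with earlier results of these data known. Named are the 6 members, their other strands, list members past the threshold and the 3 most alike assays per member. Exceptions, named after their values were seen, are miR-155, miR-547, miR-211, miR-375, miR-338-5p, miR-384-3p, miR-129-3p, miR-551b, miR-448 and miR-592, and the tissue markers. The alternatives were 5 other references, Ct limits of 32 and 38, other moderation and, added after seeing the data, the omission of row L.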

Additional observations from a re-analysis of the deposited data

Results flagged for a closer look

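The following differences pointed one way in one group and the other way in the second. None of these contrasts between groups was tested, since each group has 1 library. The share of all assays with such opposite signs was not counted, so the pattern is not particular to the miRNAs named.

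Oxygen differences of opposite sign at the 2 ages were seen for miR-383 (0.81 log2 in neonates and -0.79 in adults), miR-184 (0.89 and -0.67), miR-338-3p (0.87 and -0.28), miR-204 (0.044 and -0.32), miR-9* (-0.023 and 0.36) and mouse miR-7a* (-0.36 and 0.029). Those of miR-383, miR-184 and miR-9* in adults, and of miR-383, miR-184, miR-338-3p and miR-7a* in neonates, exceeded the technical SD of the pair. The median of all assays was itself 0.13 in neonates and -0.24 in adults. miR-383, miR-184, miR-338-3p and miR-204 share these signs, while miR-9* and miR-7a* have the reverse.

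Age differences of opposite sign in the 2 atmospheres were seen for miR-219 (0.022 in room air and -0.29 in hyperoxia), miR-9* (-0.33 and 0.055) and mouse miR-7a* (-0.10 and 0.29). All 6 values lay within the technical SD.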

How the results depend on the processing

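With U6 as reference, the members at least 2-fold higher with age numbered 4 in room air and 5 in hyperoxia, those lower 0 and 0, and those higher with oxygen in adults 2; the fit called 4 members for age. With each card centred on its median the same counts were 4 and 5 higher and, in room air, 0 lower; 1 member was higher with oxygen in neonates and 2 in adults, and the fit called 5 for age. With library mean centring 1 was higher with oxygen in neonates and 3 in adults, and with snoRNA135 and snoRNA202 2 in adults. With a Ct limit of 38 the fit called 1 for age. Another 75 recomputed summary values stayed within 1.5 times the first.

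With U6, miR-137 turned to 0.56 log2 for age in room air, 0.24 in hyperoxia and 0.40 in the fit. The uncalled age coefficient of miR-219 turned to 2.68 with U6 (limma, adjusted p = 0.00886), 0.45 with snoRNA135 and snoRNA202, 0.71 with mean centring and 1.27 with card centring (limma, adjusted p = 0.0333). miR-7b passed the threshold with a Ct limit of 32 (limma, adjusted p = 0.0410), with robust moderation (limma, adjusted p = 0.0347) and, in a setting chosen after seeing the data, without row L, which holds no member (limma, adjusted p = 0.0488). Precision is limited most at a mean Ct above 30, where 2-fold oxygen differences were most frequent at both ages. With an intensity trend 38 assays were called higher with age, against 24. No paired analysis was possible because each group has 1 library and the labels give no replicate numbers.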
